A study of Homo sapiens with 9 samples.

Results

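The 9 genes described here build and load HLA class I molecules: HLA-B, HLA-C, HLA-E, B2M, TAP1, TAP2, TAPBP, NLRC5 and ERAP1. They were taken by name from the tables of 27902 genes, and all 9 were found. Their RNA was measured in 9 RNA-seq libraries of DU145, a line grown from a metastasis of human prostate cancer and labelled wild type. Of these, 3 libraries came from cells with a scramble shRNA, 3 from cells with shRNA FZD6 #1 and 3 from cells with shRNA FZD6 #2; together the last 6 are called the knockdown libraries. FZD6 is a Frizzled receptor for Wnt ligands, and the comparison asks how its loss changes expression in these cells. All 3 groups carry a hairpin, 1 cell line was used, and the labels call each set of 3 a triplicate without saying whether the cultures were separate, so the p-values measure the spread between these libraries, which may be technical.

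HLA class I molecules show peptides from inside the cell to CD8+ T cells. A heavy chain (such as HLA-B or HLA-C, or the less variable HLA-E, which is read by NKG2 receptors of natural killer cells) pairs with the light chain β2-microglobulin, encoded by B2M. Peptides cut by the proteasome enter the endoplasmic reticulum through the TAP1-TAP2 transporter, are trimmed by the aminopeptidase ERAP1 and are loaded with the help of tapasin, encoded by TAPBP. NLRC5 is the transactivator of class I genes, and interferon raises most of the pathway. Tumors often lose parts of it and so escape T cells.

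Values are FPKM, fragments counted per length of transcript and per depth of the library, summed over the RefSeq transcripts of a gene. Of the 9 genes, 6 lie on chromosome 6, and between them the 9 have 90 entries, of which only 19 are on primary chromosomes; the others repeat the gene on alternate contigs, which are other versions of the same region in the genome build hg38. Each level was therefore summed over all loci and also over primary chromosomes alone. The all-loci sum is used unless stated, because 8.84% (HLA-C) to 21.1% (TAPBP) of the FPKM of the chromosome 6 genes was on the primary chromosome, against 54.0% for B2M and 100% for ERAP1 and NLRC5. Whether fragments were divided among these loci or counted at each could not be told from the tables, so the order of levels between genes depends on the sum chosen.

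FZD6 itself, which checks the labels, stood at 20.9, 20.5 and 20.0 FPKM in the scramble libraries, at 9.47, 10.2 and 9.80 with shRNA FZD6 #1 and at 7.84, 8.79 and 7.69 with shRNA FZD6 #2. All 6 knockdown libraries were below all 3 scramble libraries, and the log2 difference was -1.12 (SE 0.083; two-sided exact permutation p = 0.0119, the smallest that 84 arrangements allow; limma adjusted p = 0.0003). The depth estimated from the confidence bounds of the tables was 31200000 to 39100000 fragments a library. Epithelial markers were present (5 of 5 at a mean of at least 1 FPKM; their summed level was 666 to 692 FPKM in scramble, 714 to 729 with shRNA FZD6 #1 and 665 to 692 with shRNA FZD6 #2). That sum covers calls in both directions: in the pooled comparison CDH1 was lower (-0.28, adjusted p = 0.0093), and EPCAM (0.26, adjusted p = 0.0140) and KRT19 (0.15, adjusted p = 0.0046) were higher. KLK3, KLK2 and TMPRSS2 stayed under 0.05 FPKM in every library. Of 6 immune cell markers, PTPRC and CD3E were listed at 0 in all 9 libraries. CD79A (mean 2.68 FPKM over the 9 libraries), CD14 (0.94) and LST1 (0.79) were above 0 in every library, and NKG7 averaged 0.035. The summed level of the 6, most of it CD79A, was 4.25 to 4.94 FPKM in scramble, 3.91 to 4.54 with shRNA FZD6 #1 and 4.07 to 4.87 with shRNA FZD6 #2. The 5 fibroblast and endothelial markers summed to 0.38 to 0.43, 0.35 to 0.39 and 0.40 to 0.50 FPKM in the same order. Fewer cells of a type and less RNA per cell cannot be told apart in such bulk libraries.

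The upstream sequences of these genes share short runs of letters: most carry the letters of elements read by interferon-responsive factors (GAAA and GAAA, or the shorter GAA and GAAA, 2 bases apart), some an NF-κB-like element (GGGA, then 1 free base, T, 2 free bases and CC), and several the TGACG and CCAAT letters found in the X and Y boxes that NLRC5 partners bind. RefSeq windows of 250 bases before to 50 after a gene's start (GRCh38.p14) were given for 7 of the 9 genes, HLA-E and NLRC5 being the others. The longest stretches are shown for the light chain and the classical heavy chains, 5′ to 3′ on the gene's strand with every match, on either strand, in capitals.
B2M: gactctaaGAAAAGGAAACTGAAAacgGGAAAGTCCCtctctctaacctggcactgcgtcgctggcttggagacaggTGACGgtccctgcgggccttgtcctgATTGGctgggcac
HLA-B: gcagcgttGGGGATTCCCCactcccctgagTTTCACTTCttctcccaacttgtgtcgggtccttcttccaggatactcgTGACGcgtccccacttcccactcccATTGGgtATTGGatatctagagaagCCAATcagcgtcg
HLA-C: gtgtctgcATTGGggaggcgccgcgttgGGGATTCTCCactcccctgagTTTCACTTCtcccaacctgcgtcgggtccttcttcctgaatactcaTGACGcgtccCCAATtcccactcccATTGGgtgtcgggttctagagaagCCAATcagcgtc

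The B2M stretch is chr15:44711365-44711480 on the plus strand, the HLA-B stretch chr6:31357223-31357364 and the HLA-C stretch chr6:31272137-31272292, both on the minus strand. In each of the 3 an NF-κB-like and an interferon element lie upstream of TGACG, with CCAAT letters (ATTGG on the other strand) downstream of it. HLA-C also has ATTGG at its upstream end, and in B2M the interferon element comes before the NF-κB-like one. The transporter and tapasin genes are shown by their element alone, for comparison.
TAP1 interferon element: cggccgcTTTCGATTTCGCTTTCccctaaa
TAP1 NF-κB-like element: tgttcctGGGACTTTCCgagagcc
TAP2: ggctgggGAAGCGAAAGCGAAAgctgccc
TAPBP: tttggagGAAAGTGAAAGTGAAAggag

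These lie at chr6:32853816-32853845, chr6:32853760-32853783, chr6:32838781-32838809 and chr6:33314079-33314105, all on the minus strand; the TAP1 and TAPBP stretches lie within a transcript of the tables that starts further upstream. The motifs were chosen after these sequences and the values were seen. Overlapping matches were counted, the shorter interferon motif can overlap the longer, and over the 35116 windows of all genes the longer interferon element was found in 3.57%, the shorter in 7.66%, the NF-κB-like element in 5.13%, TGACG in 24.6% and CCAAT in 34.6%. Of the 9 windows of these genes, which include 2 each for TAP1 and ERAP1, 5, 4, 4, 4 and 5 held them in the same order. A match of letters does not show that a factor bound there.

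To see how abundant the pathway is in DU145 cells, levels were compared across the scramble libraries. B2M led at 210 ± 4.91 FPKM (SD, n = 3 here and for each scramble mean that follows), then came HLA-C at 104 ± 1.66, TAPBP at 96.7 ± 1.89, HLA-B at 90.7 ± 0.85, HLA-E at 31.8 ± 0.91, TAP2 at 20.6 ± 0.75, TAP1 at 10.9 ± 0.21, ERAP1 at 7.93 ± 0.15 and NLRC5 at 0.64 ± 0.013. No neighbors in that order overlapped in scramble. On the primary chromosomes alone the order was B2M (113 FPKM), TAPBP (20.4), HLA-B (14.9), HLA-C (9.22), ERAP1 (7.93), HLA-E (4.26), TAP2 (2.50), TAP1 (1.37) and NLRC5 (0.64). B2M stood first and NLRC5 last either way, whereas HLA-C fell behind TAPBP and HLA-B, and ERAP1 passed HLA-E, TAP2 and TAP1.

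**Figure D1:**
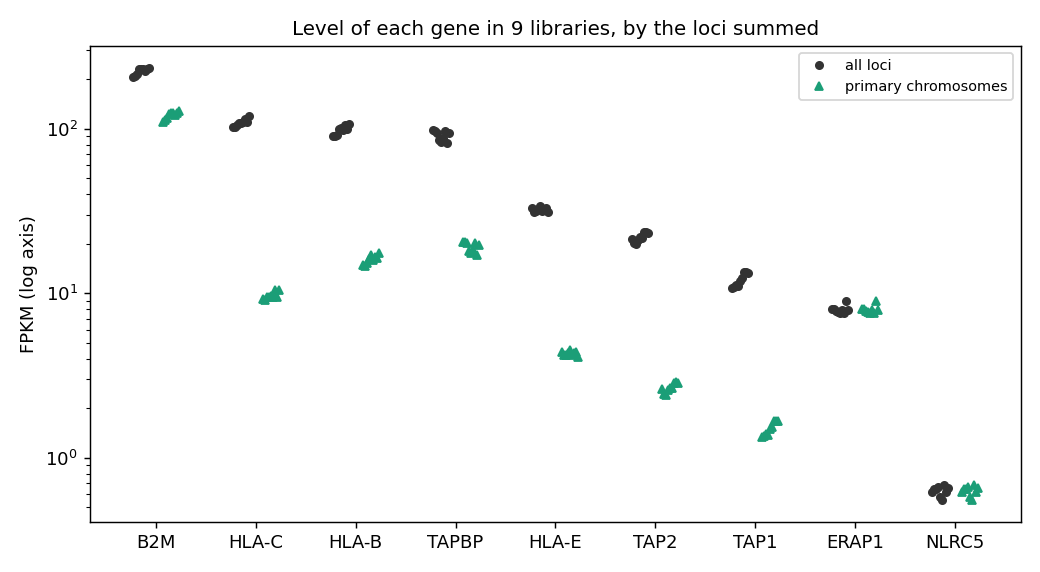
FPKM of each gene on a log axis, with 1 point for each of the 9 libraries, summed over all loci (circles) or over primary chromosomes (triangles). HLA-C falls from 103 to 119 FPKM over all loci to 9.05 to 10.5 on the primary chromosome, whereas ERAP1 and NLRC5 have the same value in both.

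The heavy chains were compared first. HLA-B was at 89.9, 90.6 and 91.6 FPKM in the scramble libraries, at 99.6, 101 and 98.7 with shRNA FZD6 #1 and at 106, 100 and 107 with shRNA FZD6 #2. Every knockdown library was above every scramble library, and the knockdown mean was 12.5% higher (102 ± 3.36, SD, n = 6, against 90.7 ± 0.85, n = 3). On the log2(FPKM + 1) scale, on which all fold changes here are given, the difference was 0.17 (SE 0.030, limma adjusted p = 0.0063). It was 0.14 (SE 0.028, adjusted p = 0.0139) for shRNA FZD6 #1 and 0.20 (SE 0.028, adjusted p = 0.0025) for shRNA FZD6 #2.

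HLA-C, the heavy chain that also engages killer-cell receptors, was at 103, 103 and 106 FPKM in scramble, at 108, 108 and 109 with shRNA FZD6 #1 and at 115, 109 and 119 with shRNA FZD6 #2. The groups did not overlap, but the pooled difference of 0.10 missed the threshold (SE 0.036, adjusted p = 0.084). As single transcripts, the 2 of HLA-C had pooled values of opposite sign, 0.19 and -0.08 (limma adjusted p = 0.25 and 0.76). The transcript with the negative value took 26.0% to 40.3% of the gene's FPKM from library to library. HLA-C rose with shRNA FZD6 #2 (0.14, SE 0.033, adjusted p = 0.0183), and the value for shRNA FZD6 #1 was 0.06 (95% interval -0.02 to 0.14, adjusted p = 0.24). The shRNA FZD6 #2 call was lost when only the 6 libraries compared were fitted (adjusted p = 0.0597), or without scramble replicate 1 (0.0596) or scramble replicate 2 (0.0632). HLA-E was at 32.8, 31.0 and 31.7 FPKM in scramble, at 32.5, 33.7 and 31.8 with shRNA FZD6 #1 and at 32.7, 33.0 and 31.0 with shRNA FZD6 #2. Its groups overlapped in every comparison, and the pooled log2 difference was 0.03 with a 95% interval of -0.04 to 0.09 (adjusted p = 0.58).

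B2M, the light chain shared by all these heavy chains, was at 206, 209 and 215 FPKM in scramble, at 229, 231 and 231 with shRNA FZD6 #1 and at 223, 232 and 235 with shRNA FZD6 #2. All 6 knockdown libraries lay above the 3 scramble libraries, by 9.49% on average. The log2 difference was 0.13 (SE 0.024, adjusted p = 0.0068) for the knockdown libraries together, 0.13 (SE 0.027, adjusted p = 0.0146) for shRNA FZD6 #1 and 0.13 (SE 0.027, adjusted p = 0.0115) for shRNA FZD6 #2, and all 3 passed the threshold.

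**Figure D2:**
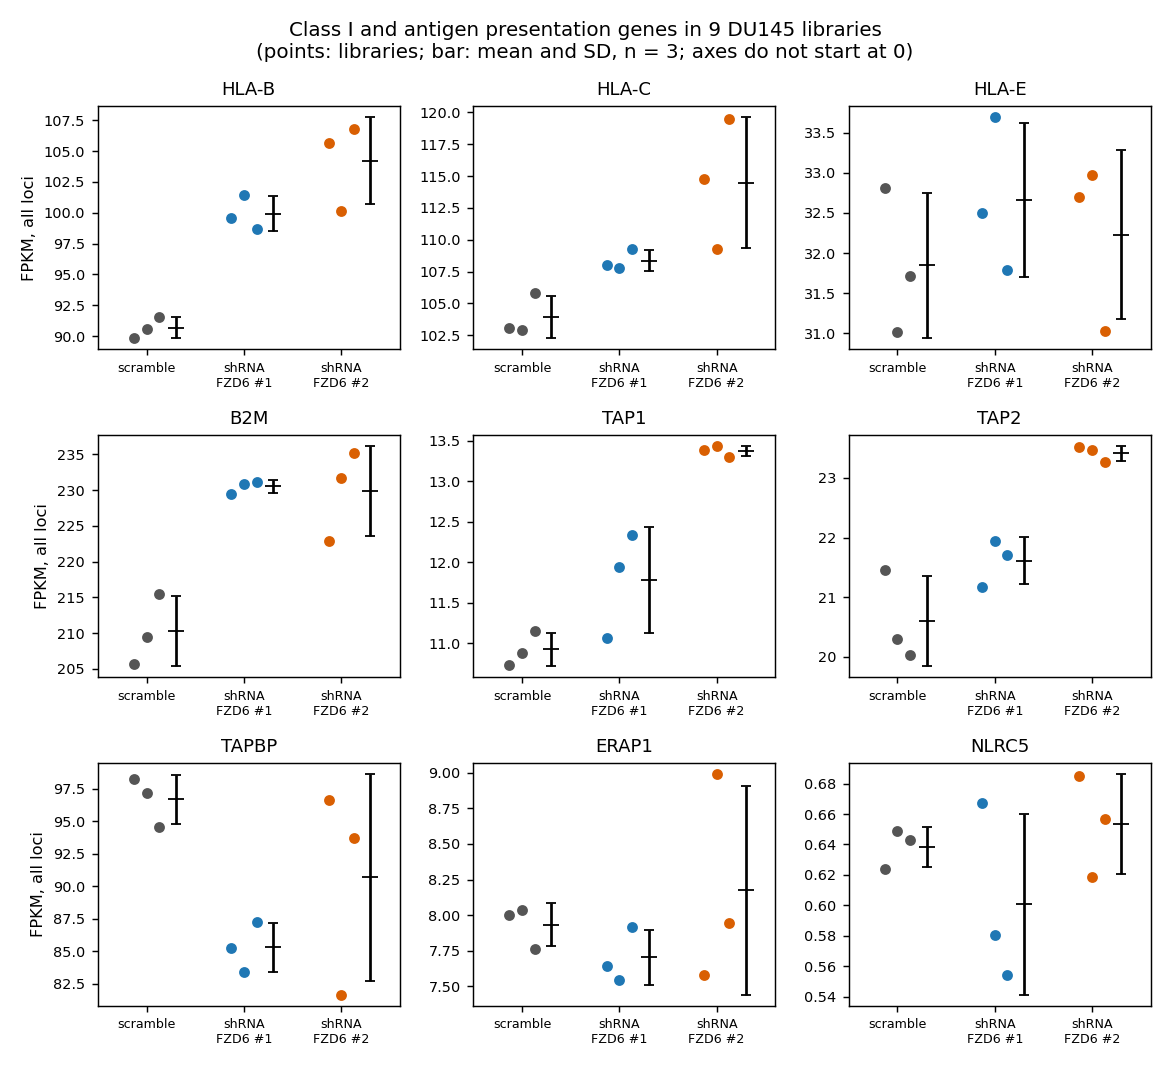
FPKM summed over all loci in each library (points) with the mean and SD of each group (bars, n = 3), 1 panel for each gene; the vertical axes do not start at 0. HLA-B, HLA-C and B2M have all 6 knockdown libraries above scramble, TAP1 and TAP2 separate shRNA FZD6 #2 from the other groups, and HLA-E, ERAP1 and NLRC5 overlap.

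These values were lower with the trend on transcript length removed. B2M has a short transcript (943 bases), and HLA-B and HLA-C are of 1550 and 1540 bases, against 2960 to 3760 for TAP1, TAP2 and TAPBP. When each library's trend of expression on transcript length was removed, the pooled B2M difference was 0.015 (adjusted p = 0.72) and the pooled HLA-B difference 0.085 (adjusted p = 0.083), so that neither was called. For shRNA FZD6 #1 they were 0.013 (adjusted p = 0.80) and 0.050 (adjusted p = 0.18). For shRNA FZD6 #2, B2M was at 0.016 (adjusted p = 0.71) and HLA-C at 0.059 (adjusted p = 0.077), whereas HLA-B still passed at 0.12 (adjusted p = 0.0071). Quantile normalization also ended the pooled calls of HLA-B (0.11, adjusted p = 0.055) and B2M (0.066, adjusted p = 0.12), and removing the trend on GC content that of B2M (0.097, adjusted p = 0.055). With single hairpins, quantile normalization ended the B2M calls of both (0.064 and 0.069, adjusted p = 0.21 and 0.15) and the HLA-B call of shRNA FZD6 #1 (0.066, adjusted p = 0.12), and removing the GC trend ended the B2M calls of both (0.10 and 0.091, adjusted p = 0.080 and 0.10). Leaving out scramble replicate 1, scramble replicate 2 or shRNA FZD6 #1 replicate 2 ended both calls for shRNA FZD6 #1, with adjusted p of 0.0504 to 0.0565 for HLA-B and 0.0527 to 0.0543 for B2M. Without shRNA FZD6 #1 replicate 3 the B2M call was lost too (adjusted p = 0.0548).

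The transporter genes were compared next. TAP1, which encodes a subunit of the peptide transporter, was at 10.7, 10.9 and 11.1 FPKM in scramble, at 11.1, 11.9 and 12.3 with shRNA FZD6 #1 and at 13.4, 13.4 and 13.3 with shRNA FZD6 #2. The shRNA FZD6 #2 libraries were above all others, and the shRNA FZD6 #1 and scramble libraries overlapped. The rise with shRNA FZD6 #2 was 0.27 (SE 0.037, adjusted p = 0.0022), a mean 22.5% above scramble, and the value for shRNA FZD6 #1 was 0.10 (95% interval 0.01 to 0.19, adjusted p = 0.099). TAP2, its partner, was at 21.4, 20.3 and 20.0 FPKM in scramble, at 21.2, 21.9 and 21.7 with shRNA FZD6 #1 and at 23.5, 23.5 and 23.3 with shRNA FZD6 #2. It rose by 0.18 with shRNA FZD6 #2 (SE 0.029, adjusted p = 0.0044), and again only those libraries stood apart from scramble. The value for shRNA FZD6 #1 was 0.07 (95% interval 0.00 to 0.13, adjusted p = 0.15). For shRNA FZD6 #2, both genes passed the threshold in 24 of 24 alternative fits, with the length trend removed among them (0.25 for TAP1 and 0.17 for TAP2). On primary chromosomes alone, where levels are low beside the pseudocount, TAP1 was at 0.18, and at 0.27 with a pseudocount of 0.1. As single transcripts, none of those of TAP1 or TAP2 passed (lowest adjusted p = 0.0504, for a TAP2 transcript). Pooled over both hairpins, TAP1 (0.18, adjusted p = 0.053) and TAP2 (0.12, adjusted p = 0.064) missed the threshold. Without shRNA FZD6 #1 replicate 1 both passed (0.22 and 0.14, adjusted p = 0.0147 and 0.041), as did TAP1 with shRNA FZD6 #1 (0.14, adjusted p = 0.0289).

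The hairpins were then compared with each other. TAP1 was higher with shRNA FZD6 #2 than with shRNA FZD6 #1 by 0.17 (SE 0.037, adjusted p = 0.0337), the groups not overlapping. This call held in 12 of 24 alternatives and was lost, for example, on primary chromosomes alone (0.11, adjusted p = 0.22), with only the 6 libraries compared in the fit (adjusted p = 0.11) and without any 1 library other than shRNA FZD6 #1 replicate 3 (0.13 to 0.18, adjusted p = 0.054 to 0.089). TAP2 differed by 0.11 (95% interval 0.04 to 0.18, adjusted p = 0.062), also with no overlap, and passed without scramble replicate 1 (adjusted p = 0.040). Without shRNA FZD6 #2 replicate 2, HLA-B (0.087, adjusted p = 0.038), HLA-C (0.11, adjusted p = 0.033) and TAPBP (0.16, adjusted p = 0.0174) differed between the hairpins. As reported, the interval of the difference was -0.01 to 0.12 for HLA-B, 0.00 to 0.15 for HLA-C and -0.07 to 0.06 for B2M.

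TAPBP, which encodes tapasin, was at 98.3, 97.2 and 94.6 FPKM in scramble, at 85.2, 83.4 and 87.2 with shRNA FZD6 #1 and at 96.7, 81.7 and 93.8 with shRNA FZD6 #2. The shRNA FZD6 #1 libraries were all below scramble, whereas 1 shRNA FZD6 #2 library was within the scramble range, 1 just below it and 1 as low as 81.7. No comparison passed the threshold (pooled -0.14, adjusted p = 0.10; shRNA FZD6 #1 -0.18, SE 0.058, adjusted p = 0.065; shRNA FZD6 #2 -0.09, adjusted p = 0.26). With shRNA FZD6 #1 the call was gained in 6 of 24 alternatives, among them quantile normalization (-0.25, adjusted p = 0.0122), and without shRNA FZD6 #2 replicate 2, whose spread enters the fit, its adjusted p was 0.0039. Without shRNA FZD6 #2 replicate 1 it was 0.049, and the pooled difference passed as well (-0.16, adjusted p = 0.036). Of the 3 TAPBP transcripts, 1 took 2.82% to 17.3% of the gene's FPKM from library to library, within groups as much as between them.

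ERAP1 was at 8.00, 8.03 and 7.76 FPKM in scramble, at 7.65, 7.55 and 7.92 with shRNA FZD6 #1 and at 7.58, 8.99 and 7.95 with shRNA FZD6 #2. Its groups overlapped, and the pooled difference was 0.00 (95% interval -0.11 to 0.11, adjusted p = 0.99). NLRC5 was at 0.62, 0.65 and 0.64 FPKM in scramble, at 0.67, 0.58 and 0.55 with shRNA FZD6 #1 and at 0.68, 0.62 and 0.66 with shRNA FZD6 #2. These levels are under the 1 FPKM mean that a gene needed to be tested. Fitted with no such filter, its pooled difference was -0.01 (95% interval -0.08 to 0.06, adjusted p = 0.87), and 1 of its 2 transcripts took 0.02% to 100% of its FPKM from library to library, so only the sum is used.

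**Figure D3:**
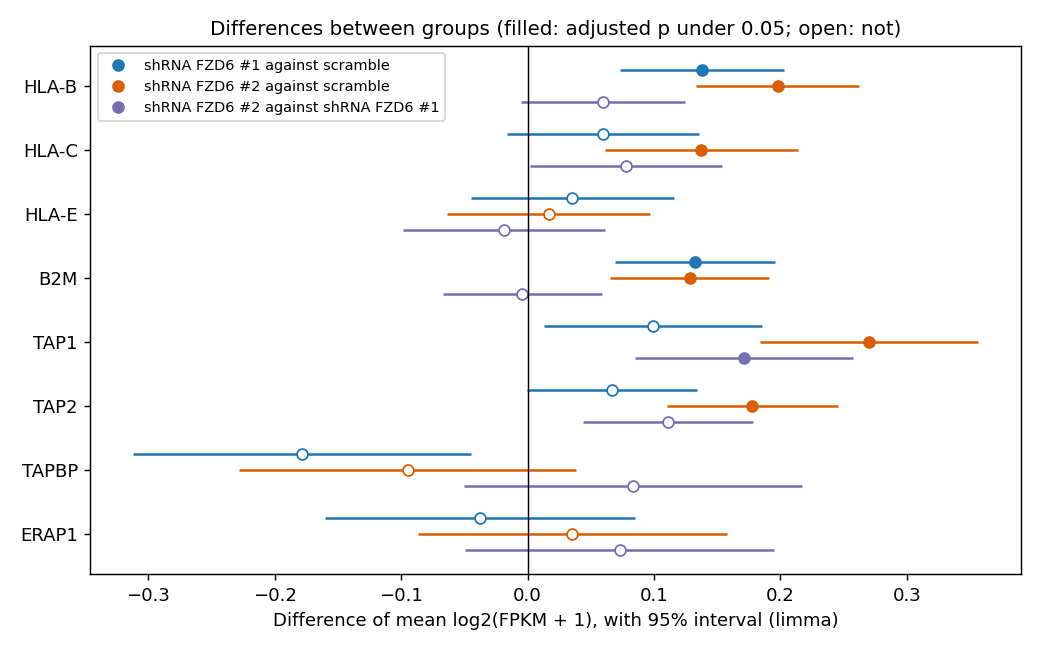
Difference of mean log2(FPKM + 1) between groups for the 8 tested genes, with the 95% interval of the limma fit (lines); filled points passed an adjusted p of 0.05 and open points did not. B2M differs from scramble by 0.13 with either hairpin, whereas TAP1 is at 0.10 with shRNA FZD6 #1 and 0.27 with shRNA FZD6 #2.

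Of the 8 tested genes, 2 (HLA-B and B2M) were called higher in the pooled comparison and none lower, where 21.6% of all 12509 tested genes were called (14.4% higher and 7.23% lower). Over all genes that was 1798 higher and 905 lower, and the split became 1126 and 1097 with quantile normalization, 851 and 735 without the length trend and 1605 and 1496 without the GC trend. With shRNA FZD6 #1 the same 2 were called higher, against 20.0% of all genes (12.8% higher and 7.19% lower, or 1605 and 900 genes, which became 935 and 1126 with quantile normalization, 831 and 793 without the length trend and 1578 and 1646 without the GC trend). With shRNA FZD6 #2, 5 were called, all higher (HLA-B, HLA-C, B2M, TAP1 and TAP2), against 27.4% of all genes (16.0% higher and 11.4% lower, or 2007 and 1421 genes, which became 1435 and 1525 without the length trend). Between the hairpins 1 was called higher, against 7.02% (1.97% higher and 5.05% lower). The median log2 difference of the 8 genes was 0.11, 0.06, 0.13 and 0.08 in these 4 comparisons, and that of all tested genes 0.03, 0.03, 0.03 and 0.00. In 3 of the 8 genes all knockdown libraries lay above all scramble libraries and in none below, against 16.4% and 9.46% of all genes. With shRNA FZD6 #1, 3 lay above and 1 below (28.9% and 17.9% of all genes), with shRNA FZD6 #2, 5 and 0 (24.0% and 16.6%), and between the hairpins 2 and 0 (11.8% and 14.5%). With transcripts tested one by one, 2, 1, 2 and 0 of the 13 tested transcripts of these genes were called, against 4.29%, 3.05%, 6.07% and 0.926% of 19658 transcripts. By the rule the study states (p under 0.01 before adjustment with a 1.2-fold change or more), 0 of 8, 0 of 8, 1 of 8 (TAP1) and 0 of 8 were called, against 3.33%, 3.90%, 6.32% and 2.85% of all genes.

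**Figure D4:**
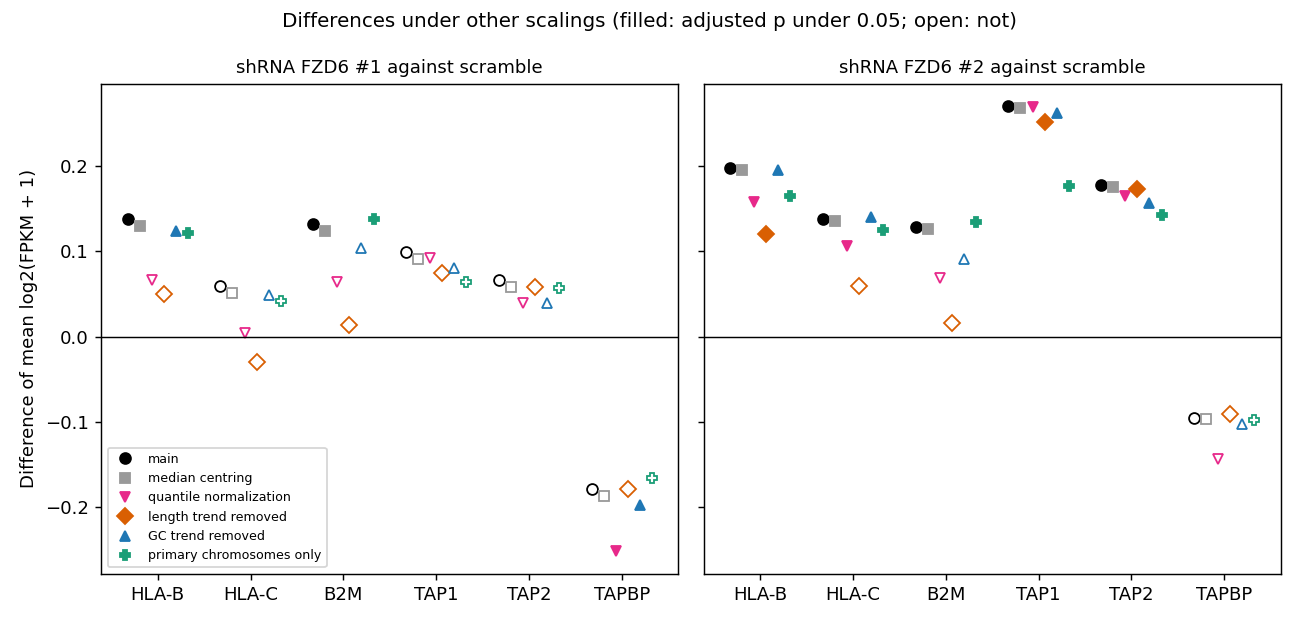
Difference of mean log2(FPKM + 1) from scramble for 6 genes, with shRNA FZD6 #1 (left) and shRNA FZD6 #2 (right), as reported (circles) and under 5 alternatives (other symbols); filled symbols passed an adjusted p of 0.05. B2M falls to 0.013 and 0.016 once the length trend is removed, whereas TAP1 with shRNA FZD6 #2 stays at 0.25.

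The other genes of the pathway were taken from lists of 83 genes, of which 72 were tested: 8 were called higher and 4 lower in the pooled comparison (16.7%, against 21.6% of all tested genes), 7 and 3 with shRNA FZD6 #1 (13.9%, against 20.0%), 13 and 7 with shRNA FZD6 #2 (27.8%, against 27.4%), and 5 and 2 between the hairpins (9.72%, against 7.02%). The shares were below the background in the pooled comparison and with shRNA FZD6 #1, and near it with shRNA FZD6 #2. Their median pooled difference was 0.00. Among the other class I and class I-like genes none fell in the pooled comparison. HLA-F, a non-classical heavy chain, rose from 7.12 ± 0.44 to 8.45 ± 0.41 FPKM (0.22, adjusted p = 0.0116), and MICA, a stress ligand of the NKG2D receptor, by 0.23 (adjusted p = 0.0250). These calls held in 18 and 19 of 23 alternatives.

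Of 9 loading chaperones 8 were tested. CANX, at a mean of 164 FPKM over the 9 libraries, was left out for an unusable entry. None of the 8 rose and GANAB, the glucosidase II subunit that trims new glycoproteins, fell by 0.10 (adjusted p = 0.0403, called in 14 of 23 alternatives). HSPA5, the chaperone BiP, fell with shRNA FZD6 #2 (-0.19, adjusted p = 0.0016, called in 24 of 24 alternatives). Of 8 peptidases, LAP3 (0.12, adjusted p = 0.0325) and BLMH (0.11, adjusted p = 0.0497) rose, BLMH in only 4 of 23 alternatives. LNPEP, an aminopeptidase of endosomes, fell with shRNA FZD6 #1 (-0.30, adjusted p = 0.0067, called in 22 of 23 alternatives) and was higher with shRNA FZD6 #2 than with shRNA FZD6 #1 (0.26, adjusted p = 0.0201). Of the 3 constitutive catalytic subunits of the proteasome, PSMB7 rose by 0.20 (adjusted p = 0.0069). Among 15 interferon and NF-κB signaling genes, IFNGR1, a chain of the interferon-γ receptor, rose by 0.20 in the pooled comparison (adjusted p = 0.0238), and none fell in it. With shRNA FZD6 #2 a pair of them fell: IFNAR1, a chain of the type I interferon receptor (-0.28, adjusted p = 0.0081, called in 24 of 24 alternatives), and TYK2, a kinase bound to that receptor (-0.12, adjusted p = 0.040, called in 13 of 24). Between the hairpins only IRF9 of this list was called, higher with shRNA FZD6 #2. It averaged 9.34 FPKM there, 8.19 with shRNA FZD6 #1 and 8.83 in scramble. IFNAR1, TYK2, IRF9, HSPA5, LNPEP, CREB1, CANX and the epithelial and immune cell markers were named after their values were seen. None of the 8 SXY enhanceosome genes, whose products bind class I promoters with NLRC5, and none of the 5 tested class II genes passed in the pooled comparison. Between the hairpins CREB1, of the SXY genes, was called higher with shRNA FZD6 #2. Its means were 10.6 FPKM there, 9.02 with shRNA FZD6 #1 and 9.83 in scramble. Of 9 tested genes of class I turnover, MARCHF4, a membrane ubiquitin ligase, rose by 0.22 (adjusted p = 0.0039), whereas 3 fell, among them MARCHF8, another of these ligases (-0.25, adjusted p = 0.0465, called in 12 of 23 alternatives), and SPPL3, an intramembrane protease (-0.12, adjusted p = 0.0099).

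None of the 5 immunoproteasome genes passed in the pooled comparison, but 3 rose with shRNA FZD6 #2, where 16.0% of all tested genes were called higher. PSMB8 and PSMB9, whose genes lie beside TAP1 and TAP2 and whose products replace constitutive subunits after interferon, were singled out after their values were seen. PSMB8 was at 8.08, 8.06 and 7.31 FPKM in scramble, at 8.30, 8.02 and 9.24 with shRNA FZD6 #1 and at 11.3, 9.94 and 10.4 with shRNA FZD6 #2. It differed by 0.39 between shRNA FZD6 #2 and scramble (adjusted p = 0.0042) and by 0.28 between the hairpins (adjusted p = 0.0388). PSMB9 was at 1.24, 1.46 and 1.19 FPKM in scramble, at 1.32, 1.28 and 1.25 with shRNA FZD6 #1 and at 1.67, 1.80 and 2.08 with shRNA FZD6 #2, with differences of 0.31 (adjusted p = 0.0174) and 0.32 (adjusted p = 0.0403). The shRNA FZD6 #2 libraries stood above all others for both genes, as for TAP1 and TAP2. They also did so for PSME1, the other of the 3 called (74.0, 71.0 and 74.5 FPKM, against 63.9 to 70.9 in the other groups). Of the class I-like genes, ULBP1, ULBP3 and MR1 separated in the same way, although ULBP3 was not called. So did BLMH, MARCHF4 and CREB1 of the other lists, CREB1 narrowly (lowest 10.17 FPKM, against 10.16 in a scramble library). PSME1, ULBP1, ULBP3, MR1 and CREB1 were named after their values were seen. Among all tested genes, 11.8% had shRNA FZD6 #2 above shRNA FZD6 #1 without overlap, as did 12 of the 72 other pathway genes tested. Above scramble the share of all genes was 24.0%. The share with shRNA FZD6 #2 above both other groups was not counted, so this separation has no matching background. The differences between hairpins held in 13 of 24 alternatives for PSMB8 and 11 of 21 for PSMB9. Levels were low on primary chromosomes alone: PSMB9 averaged 0.19 FPKM over the 9 libraries, under the 1 FPKM filter, and PSMB8 1.12. PSMB10, the third such subunit, lies on another chromosome and was at 8.64 ± 0.68, 8.74 ± 0.23 and 9.77 ± 1.67 FPKM in the 3 groups, with no call.

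**Figure D5:**
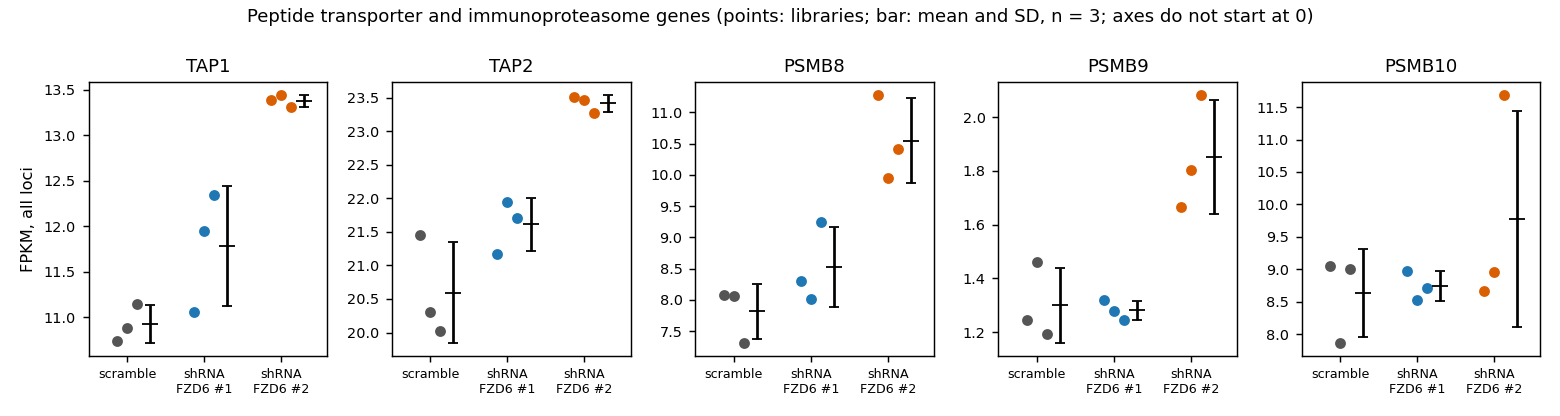
FPKM summed over all loci in each library (points) with the mean and SD of each group (bars, n = 3); the vertical axes do not start at 0. For TAP1, TAP2, PSMB8 and PSMB9 all 3 shRNA FZD6 #2 libraries lie above the other 6, and for PSMB10 they do not.

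The stretch of chromosome 6 from HLA-E to TAPBP (chr6:30489509-33314387, hg38) holds 85 other tested genes. Of these, 16 were called higher and 5 lower in the pooled comparison (24.7%), with a median difference of 0.04. With shRNA FZD6 #1, 15 were higher and 8 lower (27.1%, median 0.04), and with shRNA FZD6 #2, 19 and 5 (28.2%, median 0.03). Of all tested genes 21.6%, 20.0% and 27.4% were called in these comparisons, so that the share was furthest from the background with shRNA FZD6 #1.

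Across the 9 libraries, which share 3 groups and little spread within them, the levels of HLA-B and HLA-C (Pearson r = 0.91) and of TAP1 and TAP2 (r = 0.90) followed each other, B2M and TAPBP ran opposite (r = -0.73), and HLA-E and ERAP1 reached at most r = 0.31 with any other member, HLA-E being at -0.51 with TAPBP. Among 8600 other genes whose mean reached 5 FPKM, the pattern most like HLA-B was that of MRPS34 (r = 0.99), RER1 and OSGIN1, that most like HLA-C was of RBCK1, RPS19 and RPS27, and that most like B2M was of ACP1, EIF2D and RPL9 (each r = 0.98 to 0.99). TAP1 was most like EIF3L, AHSA1 and HNRNPF, TAP2 like MAK16, METTL3 and PINX1, and TAPBP like WIZ, PPP6R1 and GRK2 (r = 0.95 to 0.97). HLA-E was most like CDIN1, BBS2 and ZBTB8OS (r = 0.83 to 0.89) and ERAP1 like WDR48, CSTF3 and SCYL2 (r = 0.92 to 0.96). These are descriptions over 9 libraries.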

How the data were processed

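RNA-seq libraries (TruSeq Stranded mRNA) of 9 DU145 samples were analyzed. The deposited tables give FPKM with confidence bounds per RefSeq transcript and locus; per the labels, the authors used STAR and Cufflinks with hg38, and the loci are those of hg38, although the methods name mm10. Tables were joined by transcript and locus, and 72645 of 73240 accessions were paired with genes of GRCh38.p14. FPKM were summed per gene; 42 genes with an unusable entry were left out, and 12509 genes whose mean reached 1 FPKM were tested on log2(FPKM + 1) with limma 3.58.1 (trend, R 4.3.3), Benjamini-Hochberg adjustment over all of them and a threshold of 0.05. The pooled comparison set 6 knockdown against 3 scramble libraries; the others used 3 groups in 1 fit. The script was tested on simulated data. FPKM are not counts, so no count test was used; depth was estimated from the confidence bounds. Length and GC content came from GENCODE transcripts, and their trends were fitted with lowess (span 0.3). DU145 carries its own HLA alleles, and the effect of mapping to reference alleles was not tested.

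The 9 genes, the lists and the tests were chosen with earlier results of these data known. Named genes are these 9, FZD6, up to 3 called genes per list with the largest pooled change, and per member the 3 genes most alike; exceptions are stated, and some listed genes are not reported here. The fits were repeated with a pseudocount of 0.1 or 0.01, without the filter, with a filter at 5 FPKM, and with median centring, quantile normalization, length and GC trends, primary chromosomes, curated coding transcripts, single transcripts, genes of any status, a replicate block, no variance trend, only the libraries compared and each library left out in turn. The study's rule was also used, with its cut-offs applied to the limma fit and not to a t-test. Primary chromosomes with a pseudocount of 0.1 was added after seeing the data.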

Additional observations from a re-analysis of the deposited data

Results flagged for a closer look

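ERAP1 in shRNA FZD6 #2 replicate 2 was at 8.99 FPKM, and its gap to the next of the 6 knockdown libraries was 0.723 of their range, above Dixon's 95% critical value for 6 samples. Of 9 genes tested in this way 1 stood out, and chance gives about 1 in 20. In that library a second ERAP1 transcript took 5.56% of the gene's FPKM.

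TAP1 differed between the hairpins: the log2 difference of shRNA FZD6 #2 from shRNA FZD6 #1 was 0.17 (limma adjusted p = 0.0337, and 0.022 to 0.23 over the alternatives), and all 3 shRNA FZD6 #2 libraries were above all 3 of the other hairpin.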

How the results depend on the processing

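Of 760 recomputed log2 differences of these genes, 672 kept their direction and their side of the threshold, 36 lost the call, 28 gained one and 24 changed sign, none of the last being past the threshold before or after. The number of genes called in the pooled comparison (2 as reported) was 4 with the 5 FPKM filter and 1 with quantile normalization (neither HLA-B nor B2M). It was 0 with the length trend removed or by the study's rule, and 2 to 4 with 1 library left out. With shRNA FZD6 #1 (2 as reported) it was 1 with quantile normalization (TAPBP, called lower, with neither HLA-B nor B2M called). It was 1 with single transcripts, 0 with the length trend removed or by the study's rule and 4 with only the 6 libraries compared. With 1 library left out it was 0 to 3. With shRNA FZD6 #2 (5 as reported) it was 3 with the length trend removed, 2 with single transcripts and 1 by the study's rule, and 4 to 5 with 1 library left out. Between the hairpins (1 as reported) it was 2 with the 5 FPKM filter or the length trend removed, 3 with quantile normalization or the GC trend removed, and 0 with no filter, primary chromosomes (with either pseudocount), only the 6 libraries compared, single transcripts or the study's rule; with 1 library left out it was 0 to 3, the 0 arising without scramble replicate 2 or 3, shRNA FZD6 #1 replicate 1 or 2, or shRNA FZD6 #2 replicate 1 or 3. FZD6 was called in 23 of 23 limma alternatives, at -1.20 to -1.02. The cause of these changes was not tested.

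Signs changed as follows. HLA-E became -0.015 (pooled), -0.012 (shRNA FZD6 #1) and -0.018 (shRNA FZD6 #2) with quantile normalization, -0.0091, -0.0035 and -0.015 with the length trend removed, and -0.0013 for shRNA FZD6 #2 with the GC trend removed. ERAP1 became 0.049 (pooled) and 0.013 (shRNA FZD6 #1) with the length trend removed and -0.0030 (shRNA FZD6 #2) with the GC trend removed, HLA-C with shRNA FZD6 #1 -0.029 with the length trend removed, and B2M between the hairpins 0.0022 with median centring, 0.0051 with quantile normalization and 0.0027 with the length trend removed. With 1 library left out, pooled ERAP1 ranged from -0.034 to 0.011, ERAP1 with shRNA FZD6 #2 from -0.028 to 0.082, HLA-E with shRNA FZD6 #2 from -0.0017 to 0.043, and HLA-E and B2M between the hairpins from -0.037 to 0.0076 and from -0.021 to 0.018.

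Over all genes, the pooled 2703 calls became 1586 with the length trend removed and 1354, 1219 and 1669 without scramble replicates 1, 2 and 3. The 2505 calls of shRNA FZD6 #1 became 1624 with the length trend removed and 1190 to 1386 without 1 of its own libraries or scramble replicate 1 or 2. The 3428 calls of shRNA FZD6 #2 became 2205 with only the 6 libraries compared and 2222 without scramble replicate 2, and the 878 between the hairpins 1520 with the GC trend removed, 381 with only the 6 libraries compared and 373 to 534 without shRNA FZD6 #2 replicate 1 or any shRNA FZD6 #1 library. With 1 library left out, the 1 FPKM filter was applied to the other 8.

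Replicate numbers are shared by the groups but did not mark pairs: deviations of same-numbered libraries correlated at -0.071 to 0.111, with 1 of 9 over 0.1. With the replicate block the counts of called genes were 2, 2, 5 and 1, and 2553 genes were called in the pooled comparison. Estimated fragments were 124 to 162 a library for NLRC5 and 1030 or more for each other gene, so NLRC5 is the least precisely measured.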
